A study of Mus musculus with 16 samples.

Results

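The genes described here build ribosomes. They are 44 nucleolar and ribosome assembly genes, taken as a named list, and all 44 were among the 15648 genes tested. The list was drawn up with earlier results of these data known. Ribosomes are made in the nucleolus, where RNA polymerase I copies the ribosomal RNA precursor from the ribosomal DNA. Small nucleolar RNA-protein complexes then methylate the precursor (the box C/D class) or convert uridines to pseudouridine (the box H/ACA class), while assembly factors fold, cut and export the small (40S) and large (60S) subunits. Embryonic stem cells divide rapidly and are known for a large output of ribosomes, and in many cell types growth factor signalling through Erk and the transcription factor Myc is known to raise the transcription of genes of this pathway. By role the list holds 6 genes of the RNA polymerase I machinery, 3 of the box C/D core, 4 of the box H/ACA core, 7 further nucleolar proteins, 12 assembly factors of the 40S subunit and 12 of the 60S subunit.

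RNA was measured on 16 single-colour Agilent arrays of the mouse embryonic stem cell line E14tg2a, grown on gelatin with serum and the cytokine LIF and carrying a c-Raf fusion that tamoxifen turns on. All of the groups named by a time had 24 hours of 250 nM PD173074, an inhibitor of FGF receptors, and then 250 nM 4-hydroxytamoxifen (4OHT), still in inhibitor, for 30m, 1h, 2h, 4h, 8h or 24h. The 0h group had the inhibitor and no 4OHT, and the DMSO group had vehicle alone. Each of these 8 groups has 2 replicates, so n = 2 arrays a group throughout. Cells of this kind given 4OHT without the fusion or without the inhibitor were not analysed here, so the effects of 4OHT itself and of c-Raf cannot be told apart. No group had the inhibitor alone for the longer times. Time in inhibitor or in culture and time in 4OHT therefore cannot be told apart either in the comparisons with 0h. Nothing in the labels tells whether a pair of replicates was grown apart, and p-values then measure only the spread between these arrays, which may be technical.

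On each array 54.9% to 67.2% of spots stood well above background, and replicates correlated at 0.982 to 0.990 over genes. All 10 embryonic stem cell markers examined were well above background on 16 of 16 arrays. Of 8 fibroblast markers, 3 (Pdgfra, Lum and Postn) were not well above background on both arrays of any group. The other 5 were detected: Col1a2 and Thy1 were well above background on 16 arrays, Col1a1 and Col3a1 on 15 and Dcn on 10. For 8 of the 16 arrays the value table and the scanner files name different samples. The value table was followed, in which each slide carries 1 replicate of all 8 groups, so slide and replicate number divide the arrays alike. When samples were instead taken from the scanner files the direction turned for 24 of 36 changes of the 9 members described array by array. The members' median became -0.19 for 4h vs 0h in place of 0.40, and -0.27 for 24h vs 0h in place of 0.25, with 0 members called in either comparison. Under those names, however, both 0h arrays lie on slide 1 and both arrays of 4h and of 24h on slide 2. Slide and time then cannot be told apart, so these medians are not a second estimate of the changes. Under the names of the scanner files the DMSO pair of Egr1, a gene that Erk activity is known to induce, would stand at 0.51 and 6.85, where the value table gives 0.51 and 0.45. For the 5 readouts of Erk activity examined, the largest gap between the 2 arrays of a group was 0.89 to 1.43 under the value table and 3.62 to 6.85 under the scanner files. All values are log2 signals minus the 75th percentile of their array, or differences of these on the log2 scale, given with the standard error (SE) of limma's fit. This scaling cannot show a change of total RNA per cell, and in bulk RNA fewer cells that express a gene and less of its RNA per cell cannot be told apart.

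A gene is called where limma's adjusted p was under 0.05, with Benjamini-Hochberg adjustment over all genes tested. Much of the members' spread between replicates was a shift between the slides: 40 of 44 members had a higher mean on slide 1, and the median SE of a member's change was 0.19, against 0.12 in the fit with the replicate number as a block. Counts are therefore given for both fits, the second as "with the block". Most calls described here were made with the block alone and rest on the pairing of the arrays by slide.

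Many of the members moved together in the comparisons that follow, so their promoter sequence is given first. RefSeq windows of GRCm38.p6, from 250 bases before to 50 bases after the start of a gene, were found for 38 of the 44 members. The letters CACGTG are the E-box that Myc with Max is known to bind, and they read the same on both strands. They occurred in the windows of 8 of the 38 members (21.1%), against 10.9% of the 12423 tested genes with a window. Among all 27025 genes with a window the share was 8.09%. Rrn3, an initiation factor of RNA polymerase I, held 2 copies before its start, the first bases of which lie 215 and 48 bases before it. Nop2, an RNA methyltransferase of the large subunit, held 1 copy 60 bases before its start. The 250 bases before the start of both genes are shown here with CACGTG in capitals, because Rrn3 was called at 4h and the members' remaining copies all lie after the start.
Rrn3 (chr16:13780449-13780698, plus strand): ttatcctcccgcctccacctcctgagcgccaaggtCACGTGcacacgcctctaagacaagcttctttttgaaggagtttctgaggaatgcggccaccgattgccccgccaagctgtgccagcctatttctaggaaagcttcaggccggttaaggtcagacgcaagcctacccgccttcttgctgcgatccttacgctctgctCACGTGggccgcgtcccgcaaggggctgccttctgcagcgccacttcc
Nop2 (chr6:125131633-125131882, plus strand): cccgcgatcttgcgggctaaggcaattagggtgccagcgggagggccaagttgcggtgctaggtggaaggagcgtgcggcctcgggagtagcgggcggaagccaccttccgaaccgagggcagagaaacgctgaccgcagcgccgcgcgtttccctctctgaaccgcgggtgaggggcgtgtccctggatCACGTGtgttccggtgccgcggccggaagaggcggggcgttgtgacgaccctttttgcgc

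The other 6 members with CACGTG carry it within 50 bases after the start. Their sites are shown with up to 10 bases on each side.
Utp20 (after the start): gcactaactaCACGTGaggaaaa
Wdr43 (after the start): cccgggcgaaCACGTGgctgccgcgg
Tsr1 (after the start): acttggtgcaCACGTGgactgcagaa
Mybbp1a (after the start): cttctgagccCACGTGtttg
Pes1 (after the start): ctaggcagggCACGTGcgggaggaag
Ltv1 (after the start): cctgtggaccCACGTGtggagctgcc

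The letters CCGGAAGT, searched on both strands, are a form of the site of ETS transcription factors, some of which Erk is known to phosphorylate. They occurred in the windows of 9 of the 38 members (23.7%), against 7.6% of the tested genes with a window. Among all genes with a window the share was 4.31%. Matches to the 2 sets of letters cannot overlap, since neither ends in letters that begin the other. The members that hold it are Nhp2, Gar1, Polr1c, Rrn3, Tsr1, Ltv1, Noc2l, Ebna1bp2 and Nip7, and 3 examples are shown with 10 bases on each side.
Nhp2: acttgaaaacCCGGAAGTgatgtcggag
Ebna1bp2: aacgagaaaaCCGGAAGTgcggctatga
Nip7: ctttcggtccCCGGAAGTccgccacggt
Of the 8 members with CACGTG, 7 were called higher with the block at 4h, 8h or 24h vs 0h, and so were 20 of the 30 members whose window lacks it, where 23.5% of all genes tested were called at 1 or more of these times. Pes1 counts among the 7 through its call at 8h, where its 2 probes differ in size. For CCGGAAGT the counts were 5 of 9 with it and 22 of 29 without it. Rrn3, Tsr1 and Ltv1 hold both sets of letters. These matches describe the letters of the windows, and binding of any factor was not measured.

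The first comparison, 0h vs DMSO, shows what the FGF receptor inhibitor did in cells without 4OHT. The members' median difference was -0.30, with a range of -0.78 to 0.20, against -0.01 over all genes tested. Ribosomal protein genes and 12 housekeeping genes had medians of -0.18 and -0.16, and 6 other polymerase I genes 0.09. Within slide 1 and slide 2 the members' medians were -0.31 and -0.25. In the fit without the block limma called 0 of 44 members, with 2.22% of all genes tested called higher and 1.28% lower, and 1 member lower when replicate 2 of DMSO was left out. At an unadjusted p under 0.05 there were 11 members, all lower, where 17.7% of all genes passed in either direction. With the block 11 members (25%) were called lower and 0 higher, against 6.71% of all genes called lower. The arrays of 0h and DMSO did not overlap and were lower at 0h for 29 of 44 members, against 23.7% of all genes.

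The 11 members called lower with the block stood in 4 of the 6 role groups. Among the polymerase I genes were Polr1a, which encodes the largest subunit, at -0.54 (limma adjusted p with the block = 0.0213), and Rrn3 at -0.39 (0.0277). Among the nucleolar proteins were Ncl (nucleolin) at -0.60 and Gnl3 (nucleostemin, a GTP-binding protein) at -0.35. Among the 40S factors were Rrp12, which acts in the export of the precursor subunit, and Nob1, the nuclease that makes the final cut of the small-subunit RNA. The 60S factors gave 5 of 12: Ftsj3, Ebna1bp2, Mrto4, Nip7 and Noc3l, with differences of -0.62 to -0.34. In the box C/D and box H/ACA cores 0 of 3 and 0 of 4 members were called, with medians of -0.27 and -0.30. Differences between role groups were not tested.

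**Figure D1:**
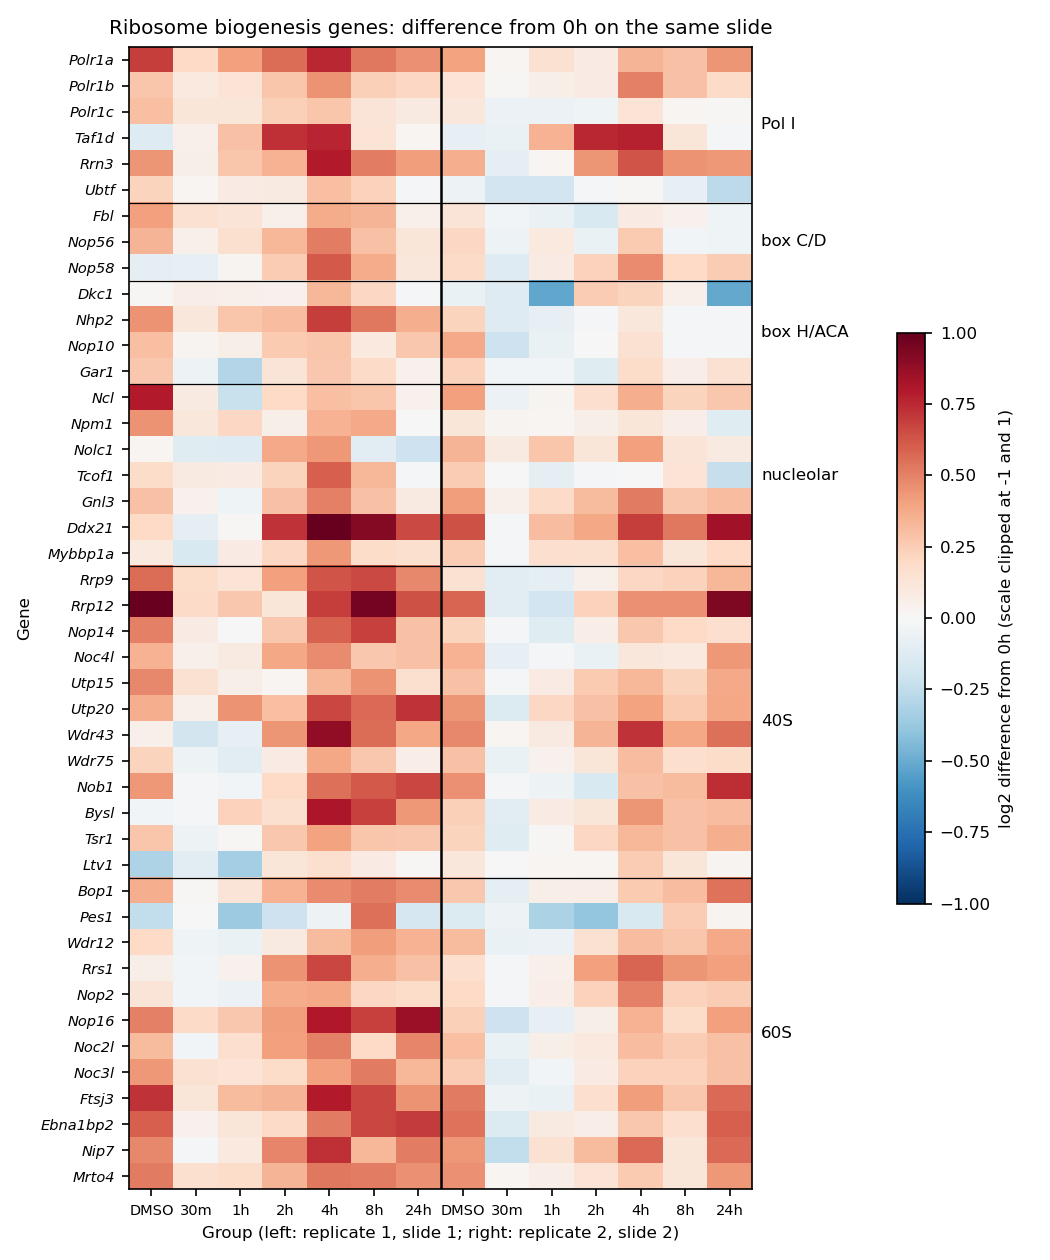
Each row is 1 of the 44 ribosome biogenesis genes, grouped by role, and each column is 1 array, coloured by its log2 difference from the 0h array on the same slide (red higher, blue lower). Replicate 1 is on the left and replicate 2 on the right, and the DMSO and 4h columns are red for most genes on both slides.

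Rrp12 showed the largest difference of the list between 0h and DMSO. Its levels were 0.77 and 1.06 at 0h, against 1.76 and 1.64 in DMSO. The 0h arrays lay below both DMSO arrays, by 0.78 ± 0.21 (log2, SE; limma adjusted p = 0.0689, and 0.0260 with the block). Ebna1bp2, the relative of a yeast factor of the large subunit, stood at 6.43 and 6.36 at 0h, against 7.03 and 6.90 in DMSO. Here too the groups did not overlap, and the difference was -0.57 ± 0.19 (limma adjusted p = 0.15, and 0.0139 with the block). Rrn3 had 4.56 and 4.48 at 0h, against 5.0 and 4.84 in DMSO, again without overlap.

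Few differences were found in the first hour of 4OHT. For 30m vs 0h limma called 0 of 44 members with either fit, and 0% of all genes in either direction without the block. The members' median was -0.02, with 0 members at an unadjusted p under 0.05 (0.607% of all genes). For 1h vs 0h 0 members were called with either fit and 0% of all genes without the block, and the median was 0.05. The 2 members at an unadjusted p under 0.05 (2.19% of all genes) were Taf1d at 0.32 and Utp20 at 0.33, each higher on both slides.

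At 2h vs 0h, Taf1d was the member called, with either fit (1 of 44, against 0.102% of all genes called higher, and 0.377% with the block). Taf1d encodes a subunit of the selectivity factor that places RNA polymerase I on the ribosomal DNA promoter. It stood at 2.30 and 2.33 in DMSO, 2.43 and 2.41 at 0h, 2.48 and 2.34 at 30m, and 2.72 and 2.76 at 1h. The levels were 3.16 and 3.16 at 2h, 3.19 and 3.18 at 4h, 2.57 and 2.53 at 8h, and 2.45 and 2.39 at 24h. The 4 arrays of 2h and 4h thus lay above the other 12 arrays, and the replicates nearly coincided at each time. Taf1d rose by 0.74 ± 0.10 at 2h (1.67-fold, limma adjusted p = 0.0282) and by 0.76 ± 0.10 at 4h (1.70-fold, adjusted p = 0.0066), both against 0h. The call at 2h was lost when any 1 of the 4 arrays of 2h and 0h was left out, and the call at 4h without replicate 1 of 0h or of 4h (limma adjusted p = 0.0584 and 0.0669), while the change at 4h stayed between 0.75 and 0.77. The members' median at 2h was 0.17, with 0.27 and 0.11 within slides 1 and 2, against 0.04 over all genes.

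At 4h vs 0h the members' median was 0.40, with a range of -0.10 to 0.94, against 0.01 over all genes tested, and it was 0.50 and 0.31 within slides 1 and 2. It was 0.24 without replicate 1 of 4h and 0.57 without replicate 2 of 4h. The medians at 8h and 24h, given further on, were lower than that at 4h, but after quantile normalization the medians at 4h, 8h and 24h were 0.26, 0.27 and 0.28. Limma called 2 members higher, Taf1d and Rrn3, and 0 lower, where 1.49% of all genes were called higher. With the block 27 of 44 members (61.4%) were called higher and 0 lower, against 7.76% of all genes called higher. The 4h arrays lay above both 0h arrays for 37 of 44 members, against 23.2% of all genes. Pes1 was the only member below 0 in this comparison, and its second probe was at 0.39.

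**Figure D2:**
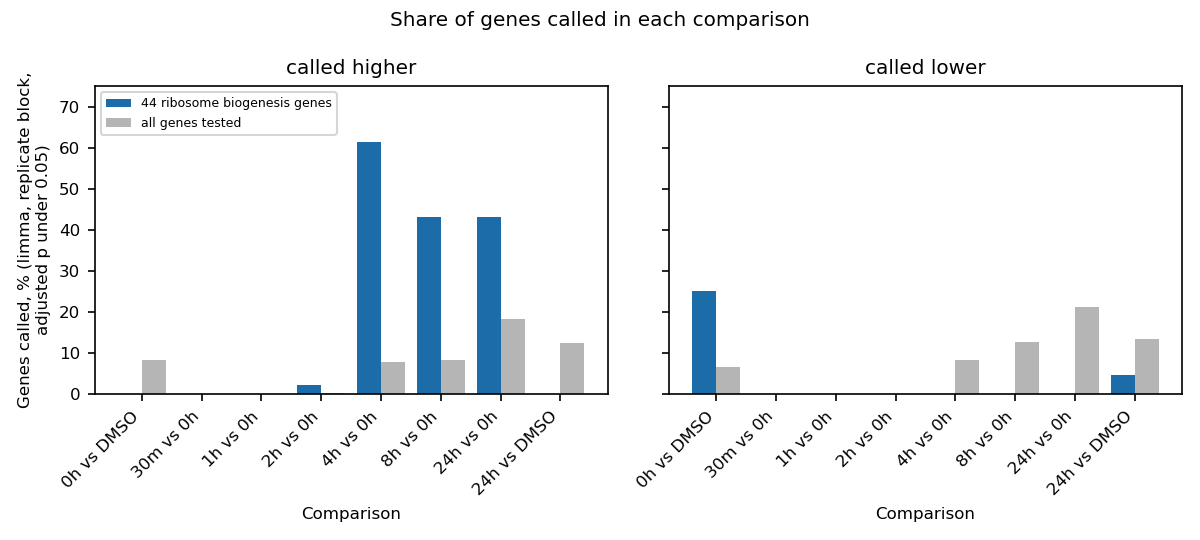
Bars give the percentage of genes called higher (left panel) or lower (right panel) by limma with the replicate block at an adjusted p under 0.05, for the 44 ribosome biogenesis genes (blue) and all 15648 genes tested (grey), in 8 comparisons. At 4h vs 0h the share called higher was 61.4% of the members and 7.76% of all genes, and at 0h vs DMSO the share called lower was 25% and 6.71%.

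In the RNA polymerase I machinery 4 of 6 members were called higher at 4h with the block. Rrn3, whose product links the polymerase to its promoter and whose promoter with 2 copies of CACGTG is printed above, rose by 0.71 ± 0.15 (1.63-fold, limma adjusted p = 0.0366). Its arrays stood at 4.56 and 4.48 at 0h, 4.62 and 4.39 at 30m, 4.84 and 4.5 at 1h, and 4.91 and 4.92 at 2h. The later levels were 5.35 and 5.11 at 4h, 5.07 and 4.93 at 8h, and 4.98 and 4.91 at 24h. Both 4h arrays lay above every other array of this gene, and every array from 2h on lay above both 0h arrays. The call in the fit without the block was lost without replicate 1 of 0h, replicate 1 of 4h or replicate 2 of 0h (limma adjusted p = 0.193, 0.306 and 0.156), with a change of 0.59 to 0.82 over the fits that left out 1 array. Polr1a and Polr1b, the 2 largest subunits, were at 0.54 and 0.47 (limma adjusted p with the block = 0.0224 and 0.0111). Polr1c, a subunit shared with RNA polymerase III, was at 0.21 and Ubtf, which binds along the ribosomal DNA, at 0.16, and neither was called with either fit.

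In the box C/D core, which carries the methyltransferase fibrillarin, the median at 4h was 0.39, and Nop58 and Nop56 were called higher with the block and Fbl, at 0.22, was not. Nop58 is a core scaffold protein of the complex. It stood at 5.45 and 5.71 in DMSO, 5.55 and 5.52 at 0h, 5.47 and 5.39 at 30m, and 5.58 and 5.60 at 1h. At the later times it had 5.80 and 5.75 at 2h, 6.16 and 5.99 at 4h, 5.92 and 5.72 at 8h, and 5.66 and 5.77 at 24h. The 4h arrays were the highest 2 of the 16, and the difference from 0h was 0.54 ± 0.13 (limma adjusted p = 0.0532, and 0.0168 with the block).

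In the box H/ACA core 0 of 4 members were called at 4h with either fit, and their differences ran from 0.22 to 0.40. At an unadjusted p under 0.05 there was 1, Nhp2, a core protein that binds the guide RNA's fold. Nhp2 had 7.79 and 7.79 in DMSO, 7.34 and 7.57 at 0h, 7.45 and 7.44 at 30m, and 7.62 and 7.49 at 1h. It then had 7.65 and 7.55 at 2h, 8.03 and 7.68 at 4h, 7.87 and 7.56 at 8h, and 7.70 and 7.56 at 24h. The 4h arrays lay above both 0h arrays, but by 0.69 on slide 1 and 0.12 on slide 2, a gap larger than the difference itself (0.40 ± 0.16; limma adjusted p = 0.193, and 0.0659 with the block). Dkc1, the pseudouridine synthase of this complex, was at 0.28.

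**Figure D3:**
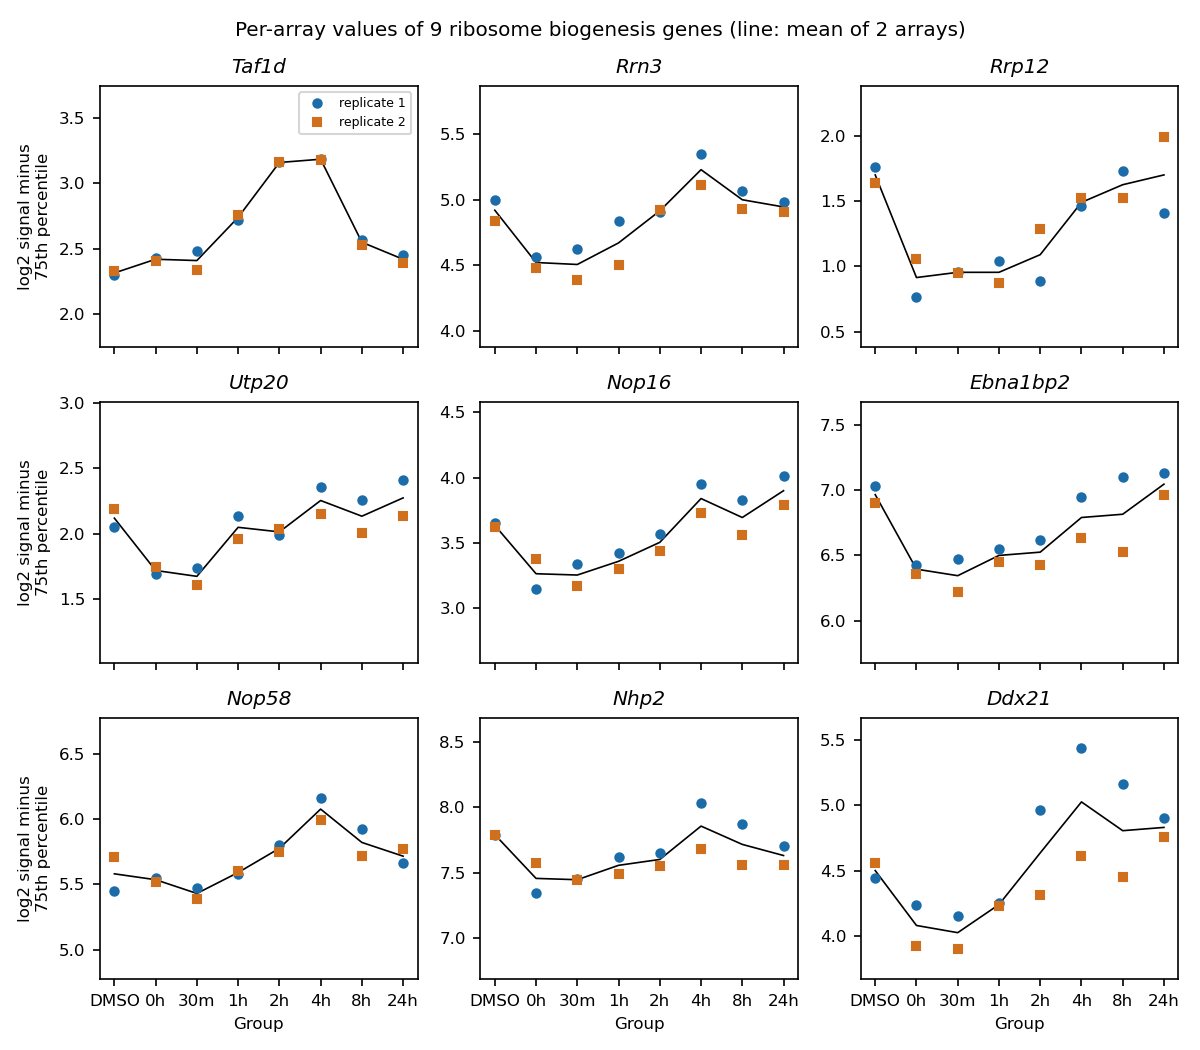
Each panel plots the log2 signal minus the array's 75th percentile of 1 of 9 ribosome biogenesis genes over the 8 groups, with a point for each array (circle replicate 1, square replicate 2) and a line through the mean of 2 arrays. Taf1d is high at 2h and 4h only, while Rrp12, Utp20, Nop16 and Ebna1bp2 are low at 0h and 30m and high in DMSO and at 24h. All panels span 2 log2 units, and levels cannot be compared between panels.

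Among the nucleolar proteins 3 of 7 were called higher at 4h with the block: Ddx21, Gnl3 and Mybbp1a. Ddx21, an RNA helicase that takes part in polymerase I transcription and in processing of its product, had the largest difference of the list at 4h. Its arrays were at 4.44 and 4.56 in DMSO, 4.24 and 3.92 at 0h, 4.15 and 3.90 at 30m, and 4.25 and 4.23 at 1h. They were at 4.96 and 4.31 at 2h, 5.44 and 4.61 at 4h, 5.16 and 4.45 at 8h, and 4.90 and 4.76 at 24h. From 2h on all arrays lay above both 0h arrays, with replicate 1 the higher of each pair. The difference at 4h was 0.94 ± 0.31 (1.92-fold; limma adjusted p = 0.138, and 0.0239 with the block), at 1.19 on slide 1 and 0.69 on slide 2. Left out 1 at a time, the 4 arrays gave 0.53 to 1.36, and the other probe of Ddx21 was at 0.53. Ncl, Npm1 (nucleophosmin), Tcof1 (treacle) and Nolc1, a chaperone of the modification complexes, were at 0.24 to 0.42 and were not called.

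The assembly factors gave most of the calls. Of the 40S factors, 8 of 12 were called higher at 4h with the block, led by Wdr43 at 0.81 ± 0.27, Bysl at 0.62 ± 0.23 and Utp20 at 0.53 ± 0.15 (SE without the block). Wdr75, Nop14, Rrp9, Nob1 and Tsr1 were also called. Rrp12, Noc4l, Utp15 and Ltv1, a late factor of the small subunit, were not called, at 0.21 to 0.58. Of the 60S factors, 10 of 12 were called higher with the block, from 0.31 (Wdr12) to 0.65 (Nip7). Bop1 and Wdr12 form a complex with Pes1, and of these 3 genes the first 2 were called and Pes1 was not. Ebna1bp2 was at 0.40 ± 0.19, also not called.

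At 8h vs 0h the members' median was 0.28, against -0.04 over all genes, with 0.37 and 0.21 within slides 1 and 2, and 0.16 and 0.46 without replicate 1 or replicate 2 of 8h. Limma called 0 of 44 members without the block (1, Ebna1bp2, when replicate 2 of 8h was left out), where 3.13% of all genes were called higher and 3.56% lower, and 10 members were higher at an unadjusted p under 0.05 (22.1% of all genes in either direction). With the block 19 members (43.2%) were called higher and 0 lower, against 8.44% of all genes called higher. These were 8 of 12 40S factors, 8 of 12 60S factors (with Pes1, at 0.40 by the probe used and 0.15 by its other probe), Polr1a, Rrn3 and Ddx21. Arrays of the groups did not overlap and were higher at 8h for 28 members, against 18.9% of all genes. In the box C/D and box H/ACA cores 0 members were called.

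**Figure D4:**
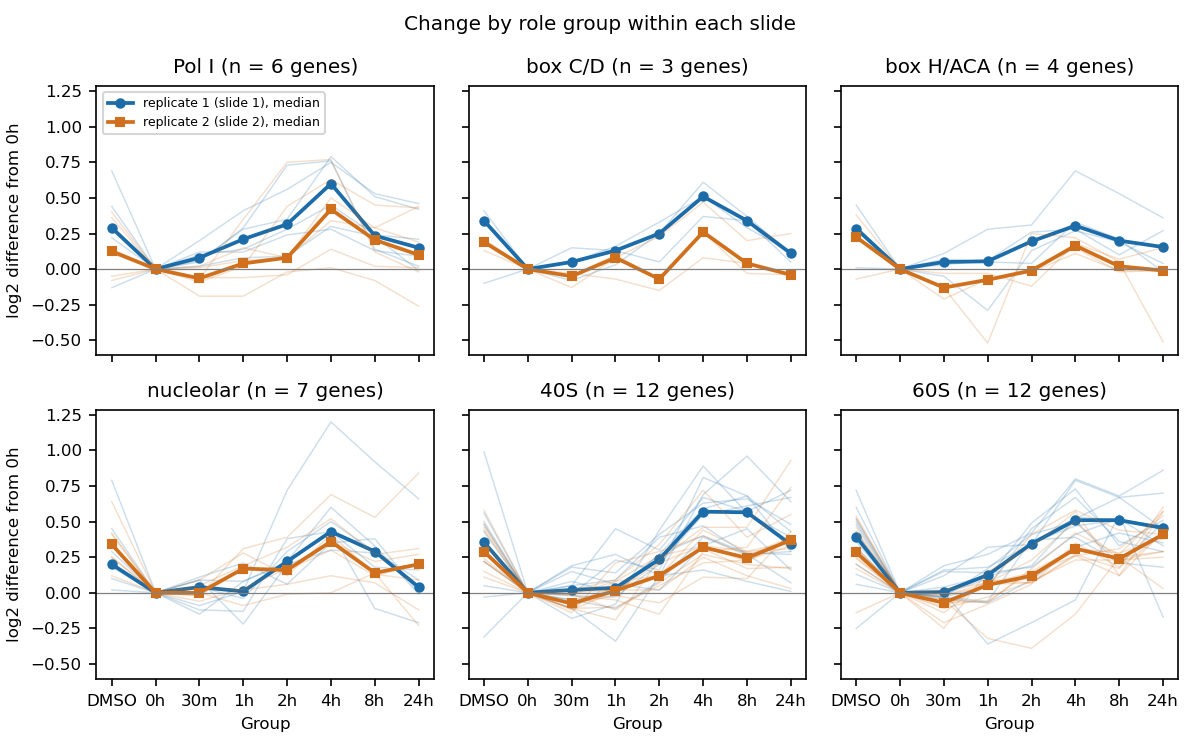
Each panel shows 1 role group, with the log2 difference from the 0h array of the same slide for every gene (thin lines) and the median over genes (thick lines, circles for replicate 1 and squares for replicate 2) across the 8 groups. The medians of the polymerase I, box C/D, box H/ACA and nucleolar groups are highest at 4h among the times from 0h on, on both slides. Those of the 40S factors on slides 1 and 2 are 0.57 and 0.32 at 4h and 0.35 and 0.37 at 24h. Those of the 60S factors are 0.51 and 0.31 at 4h and 0.46 and 0.41 at 24h, so on slide 1 both groups are lower at 24h than at 4h.

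At 24h vs 0h 4 members rose without the block, where 10.8% of all genes were called higher, and 0 were called lower. They were Rrp12 at 0.78 ± 0.21 (1.72-fold, limma adjusted p = 0.0196), Utp20 at 0.56 ± 0.15 (0.0192), Nop16 at 0.63 ± 0.15 (0.0124) and Ebna1bp2 at 0.65 ± 0.19 (0.0337). This share, 9.09%, was below that of all genes. With the block 19 members (43.2%) were called higher and 0 lower, against 18.3% of all genes called higher, and the groups did not overlap and were higher at 24h for 26 members, against 29% of all genes. The members' median was 0.25, against -0.01 over all genes, and 0.28 and 0.29 within slides 1 and 2. Left out 1 at a time, replicate 1 of 0h ended all 4 calls of the fit without the block, and leaving out replicate 1 of 24h, replicate 2 of 0h or replicate 2 of 24h left 1, 2 and 2 members called. The change of Rrp12 was 0.49 to 1.07 over these fits.

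Rrp12 reached 1.41 and 1.99 at 24h, after 0.96 and 0.95 at 30m, 1.04 and 0.87 at 1h, 0.89 and 1.29 at 2h, 1.46 and 1.52 at 4h, and 1.73 and 1.52 at 8h. Every array from 4h on lay above both 0h arrays, and the 24h arrays fell on either side of the DMSO pair. Utp20 had 2.05 and 2.19 in DMSO, 1.69 and 1.75 at 0h, 1.74 and 1.61 at 30m, and 2.14 and 1.96 at 1h. It had 1.99 and 2.04 at 2h, 2.36 and 2.15 at 4h, 2.26 and 2.01 at 8h, and 2.41 and 2.14 at 24h. Its arrays from 1h on all lay above both 0h arrays, and those of 24h overlapped those of DMSO.

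Nop16, a protein of the early large subunit, had 3.65 and 3.62 in DMSO, 3.15 and 3.38 at 0h, 3.34 and 3.17 at 30m, and 3.42 and 3.30 at 1h. Later it had 3.57 and 3.44 at 2h, 3.95 and 3.73 at 4h, 3.83 and 3.56 at 8h, and 4.01 and 3.79 at 24h. The 24h arrays lay above both the 0h pair and the DMSO pair. Ebna1bp2, whose 0h and DMSO arrays are given above, had 6.47 and 6.22 at 30m, 6.55 and 6.45 at 1h, and 6.62 and 6.43 at 2h. It reached 6.95 and 6.63 at 4h, 7.10 and 6.53 at 8h, and 7.13 and 6.96 at 24h, and the 24h pair overlapped the DMSO pair.

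By role, the calls with the block at 24h were 10 of 12 60S factors, 6 of 12 40S factors, 2 of 6 polymerase I genes (Polr1a and Rrn3), 1 of 7 nucleolar proteins (Ddx21) and 0 of the box C/D and box H/ACA cores. Nob1, the final nuclease of the small subunit, was at 0.71 ± 0.41 (limma adjusted p = 0.256, and 0.00182 with the block), at 0.67 on slide 1 and 0.74 on slide 2. Dkc1 was at -0.27 and Ubtf at -0.13, both not called, and Taf1d was at 0.00 ± 0.10. The largest change of the list at 24h was that of Rrp12. Stem cell markers moved in the same comparison: 5 of the 10 fell and 1 rose. Nanog fell by 4.63, from 4.48 and 4.59 at 0h to -1.76 and 1.57 at 24h, with a wide gap between the 24h arrays. The part of this shift of the markers in the members' changes was not tested. Thy1, among the fibroblast markers, rose by 2.34 while the other 4 tested had no call without the block.

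The 3 later times share the 0h arrays, so their values stand side by side and not as independent results. With the block 14 members were called higher at all of 4h, 8h and 24h, against 2.85% of all genes, among them Polr1a, Rrn3, Ddx21, Wdr43, Utp20, Bop1, Rrs1 and Nop16. A further 8 were called at 4h and at neither of the later times, against 3.16% of all genes: Taf1d, Polr1b, Nop56, Nop58, Gnl3, Mybbp1a, Wdr75 and Nop2. The 14 members called at none of the 3 times include all 4 of the box H/ACA core, Fbl, Polr1c, Ubtf, Ncl, Npm1, Nolc1, Tcof1, Noc4l, Utp15 and Ltv1. From 0h to 24h the highest mean stood at 4h for 30 members, at 8h for 5 and at 24h for 9. The replicates differed in this: on slide 1 the counts were 31, 9 and 4, and on slide 2 they were 25, 2 and 16, with 1 member highest at 2h. The time of the highest mean was not counted over all genes tested, so these counts do not show a trait particular to the members. All 20 members of the polymerase I, box C/D, box H/ACA and nucleolar groups had their highest mean of 2 arrays at 4h under this scaling, by the probe used. The other probes of Ubtf, Nolc1 and Ddx21 were higher at 24h than at 4h. They stood at 0.36, 0.34 and 0.57 at 24h vs 0h, against 0.19, -0.07 and 0.53 at 4h vs 0h.

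Direct comparisons between the later times gave few calls. For 8h vs 4h limma called 1 member lower, Taf1d, which fell by 0.64 ± 0.10 (adjusted p = 0.0218), where 0.326% of all genes were called lower. With the block Taf1d and Nip7 were called lower and the probe used for Pes1 higher, at 0.50 (-0.23 by its other probe, and 0.08 by the other probe of Nip7), where 4.25% of all genes were called lower and 4.4% higher. The call of Taf1d held without replicate 2 of 8h and was lost when any of the other 3 arrays was left out. For 24h vs 8h 0 members were called without the block (5.24% of all genes higher and 3.6% lower) and 3 were at an unadjusted p under 0.05 (23.6% of all genes). With the block the probe used for Pes1 alone was called lower there, at -0.47 (-0.15 by the other probe), against 10.2% of all genes.

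The comparison of 24h with 4h was added after the data were seen. Taf1d fell by 0.76 ± 0.10 (limma adjusted p = 0.000809) and Dkc1 by 0.54 ± 0.18 (0.0496), 2 of 44 members, where 11% of all genes were called lower. With the block 11 members (25%) were called lower and 0 higher, against 21.4% of all genes called lower, a share near that of the list. They were Taf1d, Polr1b, Rrn3, Ubtf, Nop56, Nop58, Dkc1, Nolc1, Tcof1, Gnl3 and Rrs1. The other probes of Nolc1 and Ubtf went the other way, at 0.41 and 0.17, where the probes used were at -0.48 and -0.29. Of the 11, 1 is an assembly factor of the 60S subunit and 0 are factors of the 40S subunit. The members' median was -0.18, but 0.03 after quantile normalization and 0.01 without replicate 1 of 4h, so its direction depends on the scaling and on 1 array. Without any 1 of the 4 arrays 1 member stayed called in the fit without the block.

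Set against DMSO, the vehicle-treated cells, the members at 4h had a median of 0.09, which was -0.01 after quantile normalization and -0.05 without replicate 1 of 4h. Limma called 2 members higher, Taf1d by 0.87 ± 0.10 (adjusted p = 0.00142) and Nop58 by 0.49 ± 0.13 (adjusted p = 0.0443), where 4.13% of all genes were called higher. Leaving out any 1 of the 4 arrays left 1 of these calls. With the block 6 members were called higher, against 11.7% of all genes: Taf1d, Nop58, Rrn3, Wdr43, Bysl and Rrs1. At 24h vs DMSO the median was 0.00, and 0 of 44 members were called without the block, where 6.56% of all genes were called higher and 4.8% lower (1 member was called lower without replicate 2 of DMSO). There were 2 members at an unadjusted p under 0.05 (25.5% of all genes). With the block Ncl at -0.45 and Npm1 at -0.34 were called lower, against 13.4% of all genes, and the other probe of Ncl was at 0.13. A p that misses the threshold does not show that the 24h and DMSO levels were equal.

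Further genes of the pathway, taken from lists also chosen with earlier results of these data known, are given by counts with the block. Of all genes tested 7.76% were called higher in this way at 4h vs 0h and 18.3% at 24h vs 0h. Of 38 other 40S factors 20 were called higher at 4h vs 0h and 16 at 24h vs 0h, with medians of 0.39 and 0.22. Utp11 at 24h, by 1.01 ± 0.19 (limma adjusted p = 0.00438), and Utp23 at 4h, by 0.61 ± 0.13 (0.0405), were called without the block as well. Of 46 other 60S factors 19 were called higher at 4h and 13 at 24h, with medians of 0.36 and 0.26. Gtpbp4, a nucleolar GTPase, rose by 0.70 ± 0.11 at 4h (limma adjusted p = 0.0159), and Nmd3, the export adaptor of the large subunit, by 0.63 ± 0.11 (0.0215). At 0h vs DMSO 5 of the 40S list and 11 of the 60S list were called lower, with 0 called higher in either. Of all genes 6.71% were called lower there.

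Of 6 other polymerase I genes tested 3 were called higher at 4h vs 0h, against 7.76% of all genes. At 0h vs DMSO their median was 0.09, with 2 called higher, Taf1b at 0.47 and Baz2a at 0.44, and 1 lower. Taf1a, another subunit of the selectivity factor, rose by 0.72 ± 0.13 at 4h (limma adjusted p = 0.0216) and by 0.58 ± 0.13 at 24h (0.00974). Taf1b of the same factor fell by 1.09 ± 0.14 in log2 units and Baz2a, a repressor of ribosomal DNA, by 0.66 ± 0.12 at 24h vs 0h (limma adjusted p = 0.00057 and 0.00314). Among 5 assembly factors of the modification complexes, Naf1, which loads the box H/ACA core, was at 0.77 ± 0.41 at 4h and 1.16 ± 0.41 at 24h, called higher with the block at both times (limma adjusted p = 0.00925 and 0.00022) and at neither without it.

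Genes of the ribosomal proteins themselves had smaller medians: 0.28 at 4h and -0.07 at 24h vs 0h. With the block 2 and 0 of 78 were called higher, against 7.76% and 18.3% of all genes. Their 4h arrays nonetheless lay above both 0h arrays for 75 of 78 genes, against 37 of 44 members and 23.2% of all genes. Within slides 1 and 2 their medians at 4h were 0.44 and 0.11. For 24h vs 4h 45 of these 78 genes were called lower with the block and 1 without it, against 21.4% and 11% of all genes. At 4h vs 0h the block gave 2 of 39 mitochondrial ribosome genes, 4 of 19 RNA polymerase III genes, 1 of 16 nucleotide synthesis genes and 1 of 12 housekeeping genes higher, with medians of 0.13, 0.17, 0.20 and 0.19. At 0h vs DMSO these lists, in the order given, had medians of -0.18, -0.16, -0.18, -0.23 and -0.16. With the block 0, 4, 2, 5 and 0 of their genes were called lower there, and 0 higher in each. Of all genes 6.71% were called lower. The differences between these lists and the 44 members were not tested.

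**Figure D5:**
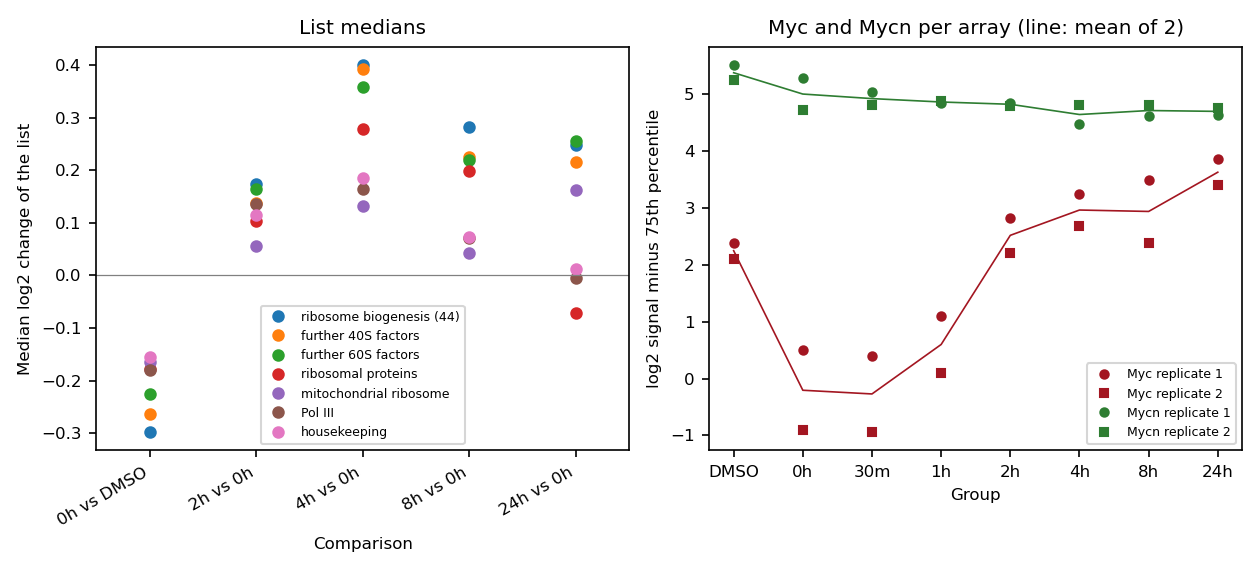
The left panel gives the median log2 change of 7 gene lists in 5 comparisons, and the right panel the log2 signal minus the 75th percentile of Myc and Mycn on each array, with lines through the means of 2. At 4h vs 0h the list medians run from 0.13 (mitochondrial ribosome) to 0.40 (the 44 members), and Myc is low at 0h and 30m and high from 2h on. Levels of Myc and Mycn come from different probes and cannot be compared with each other.

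Myc moved in the same direction as the list at most times. Its levels were 2.39 and 2.11 in DMSO, 0.50 and -0.91 at 0h, 0.40 and -0.94 at 30m, and 1.1 and 0.1 at 1h. It had 2.83 and 2.21 at 2h, 3.24 and 2.69 at 4h, 3.50 and 2.38 at 8h, and 3.86 and 3.40 at 24h. All arrays of 2h and later lay above both 0h arrays. At 0h vs DMSO Myc was at -2.46 ± 0.60 (limma adjusted p = 0.0537, and 0.000879 with the block). Against 0h it was at 2.73 ± 0.60 at 2h (adjusted p = 0.269, and 0.00351 with the block), and it rose by 3.17 ± 0.60 at 4h (limma adjusted p = 0.0243), 3.15 at 8h (0.016) and 3.84 at 24h (0.00152). Myc was thus at its highest mean at 24h.

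Mycn, a relative of Myc, stood at 5.51 and 5.25 in DMSO, 5.28 and 4.73 at 0h, 4.48 and 4.81 at 4h, and 4.64 and 4.76 at 24h. It was not called in any comparison with 0h. Against DMSO it fell by 0.74 ± 0.19 at 4h and by 0.68 ± 0.19 at 24h (limma adjusted p = 0.0437 and 0.0478). Whether Myc or Mycn take part in the members' changes was not tested. The 5 readouts of Erk activity (Egr1, Fos, Spry4, Dusp6 and Phlda1) were all called higher at 4h, 8h and 24h vs 0h, with medians of 4.89, 4.31 and 3.97.

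Some members are read by probes that differ. The 44 members have 60 probes, 32 members have 1 probe and 12 have several, and 16 further probes were well above background on all arrays. Their sign was opposite to that of the probe used for 2 of 16 at 4h vs 0h, 3 of 16 at 0h vs DMSO and 5 of 16 at 24h vs 0h. For Pes1 the probe used was at 0.20 at 0h vs DMSO and -0.10 at 4h vs 0h, where its other probe was at -0.58 and 0.39, so its calls hold for the probe used alone. Ncl was at -0.60 at 0h vs DMSO by the probe used and at 0.13 by the other. Ddx21, Ebna1bp2, Nip7, Tsr1 and Wdr43 kept their sign in all 3 comparisons over every such probe, though 1 other probe of Ebna1bp2 was at 0.03 at 4h vs 0h.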

How the data were processed

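Agilent Feature Extraction read 16 single-colour mouse arrays, per the file headers, in the green channel, whereas the labels name Cy5. The deposited scanner files hold intensity values: a processed signal that the authors' scanner software had corrected for background, and the raw signals used for normexp. The authors' value table holds the same processed intensity on a linear scale, rounded, with column medians of 27.3 to 44.7, and its column headings named each array's sample. Every scanner file matched 1 column at 100% of spots (tolerance 0.6%). Analyses used log2 of the processed signal, from which the 75th percentile over an array's non-control spots (445 to 660) was subtracted. Outlier-flagged spots, 147 to 240 on an array, were dropped, and 0 spots were saturated. Spots of a probe were averaged. Of 55681 probes, 27656 matched 1 gene of a RefSeq table (GRCm38.p6, names only) by accession, 28025 matched none and 0 several. The probe with the highest mean represented a gene, and 15648 of 20972 genes were tested, those whose probe was well above background on the whole of 1 group or more. The array design is annotated on mm9.

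Limma 3.58.1 in R 4.3.3 fitted 8 group means over 16 arrays (8 residual degrees of freedom; lmFit and eBayes, two-sided, Benjamini-Hochberg adjustment over all genes tested, called at adjusted p under 0.05). The same fit with the replicate number as a block had 7. Deviations of same-numbered arrays from their group means correlated at 0.327 to 0.659 over all 28 pairs of groups, so the numbers were taken to pair the arrays. The fit was tested on simulated data. Values on every array are given for members called at 0h vs DMSO or at 4h, 8h or 24h vs 0h and, for a role group with none, its member with the largest change. The members and lists were chosen with earlier results of these data known. The number of arrays limits the precision. Alternatives tried were other scalings, background correction, filters, probe summaries, samples in the fit, array identities, the value table and leaving out each array.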

Additional observations from a re-analysis of the deposited data

How the results depend on the processing

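The counts of called members depend on the spread that each fit assumes, and 2 arrays a group limit all of them. With the replicate block the members called were 11 at 0h vs DMSO, 27 at 4h, 19 at 8h and 19 at 24h vs 0h, 3 at 8h vs 4h, 1 at 24h vs 8h, 6 at 4h vs DMSO, 2 at 24h vs DMSO and 11 at 24h vs 4h, and at 30m, 1h and 2h the block left the counts at 0, 0 and 1. Median centring, a fit of only the 2 groups compared, and samples as attached to the scanner files each gave 0 at 2h, 4h and 24h vs 0h, 8h vs 4h, 4h vs DMSO and 24h vs 4h. Without the filter on dim probes the counts were 0 at 2h, 1 at 4h, 1 at 4h vs DMSO and 1 at 24h vs 4h. Normexp gave 0 at 2h, 2 at 8h, 0 at 8h vs 4h and 1 at 24h vs 4h, and quantile normalization 1 at 8h, 10 at 24h and 1 at 4h vs DMSO. Leaving out 1 array at a time, the counts ranged from 0 to 1 at 0h vs DMSO, 0 to 0 at 30m, 1h and 2h, 0 to 2 at 4h, 0 to 1 at 8h, 0 to 2 at 24h, 0 to 1 at 8h vs 4h, 0 to 0 at 24h vs 8h, 1 to 1 at 4h vs DMSO, 0 to 1 at 24h vs DMSO and 1 to 1 at 24h vs 4h. In these fits the lone array of a group is assumed to vary like the other groups.

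The members' median at 0h vs DMSO was -0.30, with -0.22 under median centring, -0.25 after quantile normalization and -0.06 with samples as attached to the scanner files. At 4h vs 0h it was 0.40, with 0.26 after quantile normalization and -0.19 with samples as attached to the scanner files. Leaving out 1 array moved 34 of 48 medians by more than the spread between slides. Their ranges were -0.38 to -0.20 at 0h vs DMSO, 0.08 to 0.34 at 2h, 0.24 to 0.57 at 4h, 0.16 to 0.46 at 8h and 0.20 to 0.34 at 24h vs 0h. The sign turned within the ranges at 30m (-0.13 to 0.09), 1h (-0.04 to 0.15), 8h vs 4h (-0.28 to 0.02), 24h vs 8h (-0.18 to 0.12), 4h vs DMSO (-0.05 to 0.26), 24h vs DMSO (-0.10 to 0.07) and 24h vs 4h (-0.31 to 0.01). Median centring moved the median of all genes from 0.04 to -0.10 at 2h vs 0h, from -0.01 to -0.10 at 24h vs 0h, and from -0.04 to -0.14 at 24h vs 4h. Samples as attached to the scanner files turned 24 changes of the 9 members: Ddx21 to 0.14 at 0h vs DMSO and -0.58, -0.67 and -0.35 at 4h, 8h and 24h, Nop58 to 0.23, -0.10, -0.30 and -0.17, Rrn3 to -0.16, -0.29 and -0.25, Taf1d to -0.017, -0.38 and -0.24, and Nhp2 to -0.057, -0.18 and -0.16 at those 3 times. Utp20 turned to 0.008 at 0h vs DMSO and to -0.078 and -0.21 at 4h and 8h, Ebna1bp2 to -0.19 and -0.32 at 4h and 8h, and Nop16 to -0.19 and -0.009 at 8h and 24h. Near 0, Nop58 at 0h vs DMSO turned to 0.031 (median centring), 0.02 (normexp) and 0.082 (without replicate 2 of DMSO), and Taf1d at 24h to -0.093 (median centring), -0.03 and -0.011 (without replicate 1 of 24h or replicate 2 of 0h, in a range of -0.03 to 0.032). Under the names of the scanner files the 0h arrays lie on slide 1 and those of 4h, 8h and 24h on slide 2. In those comparisons with 0h, slide and time cannot be told apart. The cause of the moves in this paragraph was not tested. The value table, the mean of all probes and only probes above background on all arrays moved 0 counts by over 1.5 times.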
